A study of Mus musculus with 6 samples.

Results

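Transcript levels of 47 mitosis and spindle genes were compared between axitinib-resistant and parental 4T1 cells. The genes were taken by name for their known roles at the transition from G2 to mitosis, in the spindle, at the kinetochore, and in cytokinesis. The rule names no measured value, but the list was drawn up with earlier results of these data known. All 47 were found among the 53465 genes of the deposited table and all 47 were among the 13550 genes with enough counts to be tested. The lowest estimated count of any member in any library was 274, so no member was near the limit of detection.

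The 4T1 line came from a mammary tumor of a Balb/c mouse and spreads spontaneously from the fat pad. The parental line (P) and an axitinib-resistant derivative (AxR) were each profiled in 3 polyadenylated RNA libraries. Axitinib is a tyrosine kinase inhibitor directed mainly at the VEGF receptors. Per the study's methods, AxR cells came from metastases in lung or lymph node of mice that had received axitinib at 100 mg/kg/day before and after surgery, and per the labels they had been held in 0.5 μM axitinib for more than 2 months. The growth label names axitinib in the medium of every library, P included, whereas the treatment label gives it for AxR only, so whether P cells were exposed is not settled by the labels. Passage through a mouse, growth at a metastatic site, and drug exposure cannot be told apart in this design, because a single derived line was set against its parent. The sources used here do not say whether AxR is 1 clone or whether the 3 libraries of a line came from separate cultures, and p-values then measure only the spread between these libraries.

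Entry into mitosis is driven by CDK1 bound to cyclins A and B and switched on by CDC25 phosphatases. Chromosomes are then condensed, attached to spindle microtubules at their kinetochores, and held under the spindle checkpoint until the anaphase-promoting complex (APC/C) destroys securin and cyclin B, after which the central spindle directs cytokinesis. Many of these transcripts accumulate in G2 and mitosis and are low in G1, being repressed in resting cells by the DREAM complex and activated in cycling cells by MYBL2 and FOXM1 with the MuvB core, at CHR elements, and by NF-Y, at CCAAT boxes. Their level in bulk RNA therefore depends on the share of cells in G2 and mitosis as well as on the level in each such cell, and fewer cells of a stage and less RNA per cell cannot be told apart here.

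Most of the mitosis and spindle genes were higher in AxR than in P, by moderate amounts. By edgeR's quasi-likelihood test with an adjusted p under 0.05, 40 of the 47 were higher in AxR, 3 were lower, and 4 did not pass. Among all genes tested, 32.8% were higher and 30.8% were lower, so that the lines differed at 63.5% of them. The median log2 fold change of the members was 0.45, against 0.0058 for all tested genes, and 27 of the 47 lay within 0.5 of zero. Only 6 members passed the test with a log2 fold change of at least 1, namely Cenpe, Kif20a, Cdc25c, Racgap1, Ccna2, and Kif2c, and no member fell by as much, at either an adjusted or an unadjusted p under 0.05 in edgeR or at an adjusted p under 0.05 in DESeq2 or limma-voom. Over all tested genes, 12.7% reached that size in one direction or the other.

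**Figure D1:**
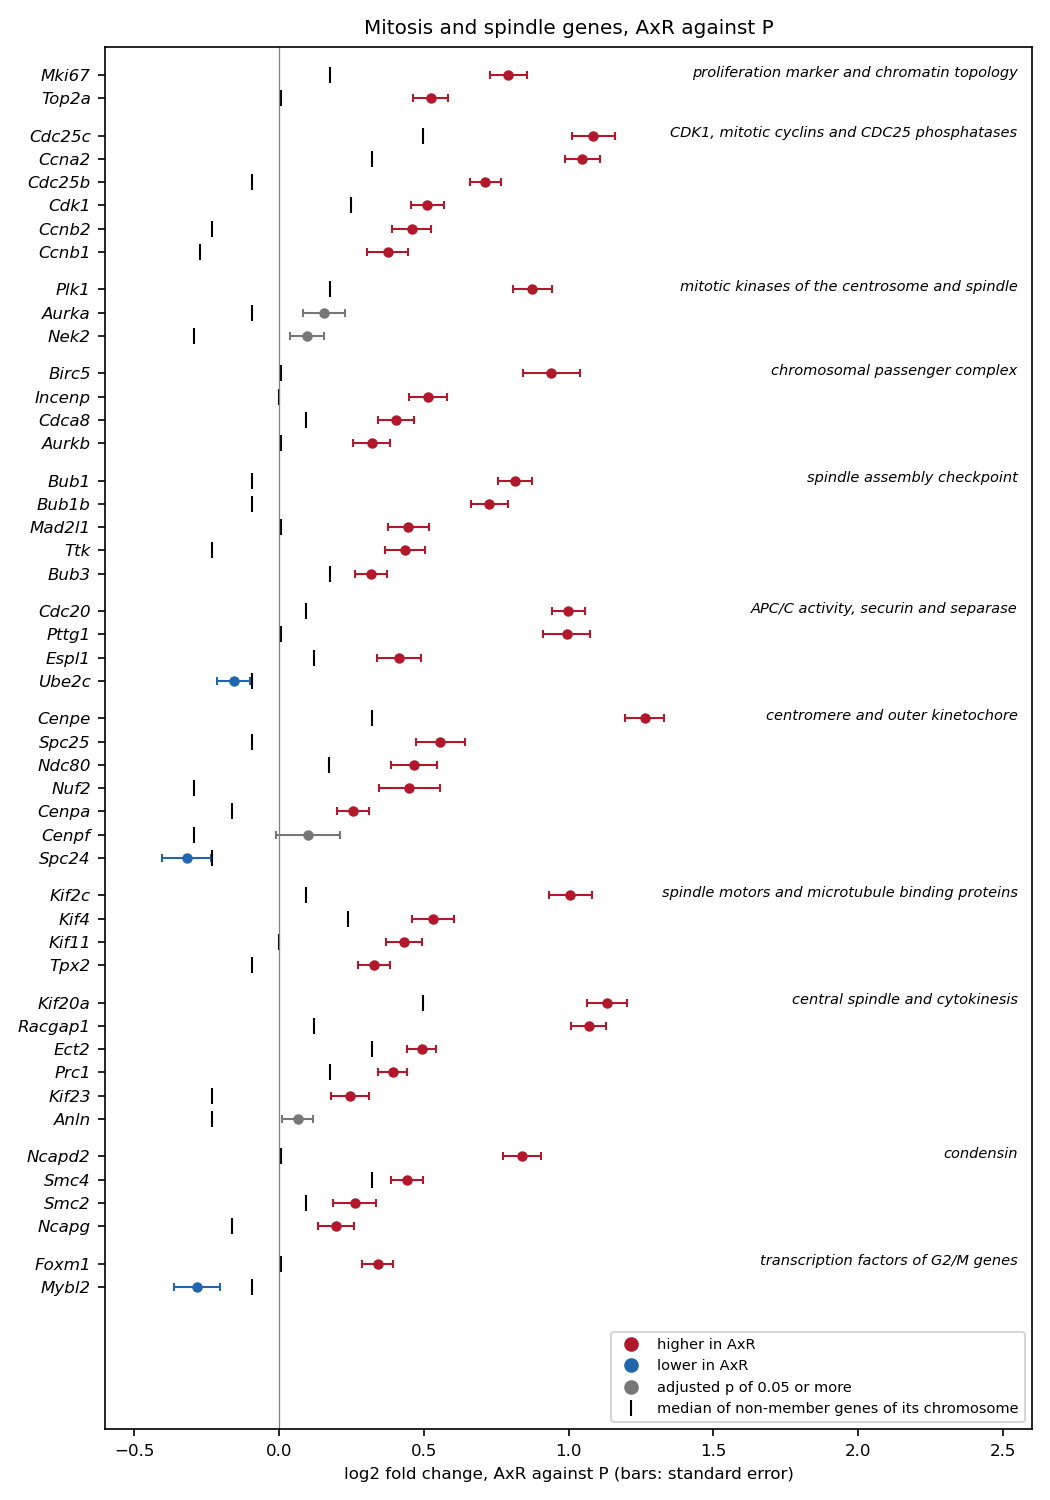
Log2 fold change of each of the 47 members in AxR against P with its standard error, grouped by role, with the median of the non-member genes of its chromosome as a black tick. Points of 40 members are red and right of 0, and Ube2c, Spc24, and Mybl2 are blue and left of 0.

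The 3 AxR libraries and the 3 P libraries did not overlap for 43 of the 47 members, 40 of them higher in AxR and 3 lower, where 68.3% of all tested genes did not overlap. The 47 genes together took 0.624%, 0.682%, and 0.645% of all estimated counts in P replicates 1, 2, and 3. In AxR replicates 1, 2, and 3 they took 0.956%, 0.896%, and 0.894%. Every AxR library was above every P library, and the summed level of the members was 1.43-fold higher in AxR. Members moved together between libraries of the same line. P replicate 2 was above the P mean at 44 of the 47, P replicate 1 at 1, AxR replicate 1 at 45 and AxR replicate 3 at 8, whereas between 47.7% and 54.9% of all tested genes were above their line's mean in each library. On the log2 scale, the median member deviated from its line's mean by -0.078 to 0.083 in P libraries and by -0.071 to 0.094 in AxR libraries. These shifts were smaller than the median log2 fold change of 0.45 between the lines, though not negligible beside it. The median member stood 0.57 above the P mean on the log2 scale in AxR replicate 1, 0.43 in AxR replicate 2, and 0.37 in AxR replicate 3. Without AxR replicate 1, 40 members were still higher and the median was 0.39, and without P replicate 2 there were 41 and the median was 0.50. Mitochondrial transcripts also moved with the line, being between 1.25% and 1.31% of counts in P and 2.15%, 1.87%, and 1.63% in AxR replicates 1 to 3, and their part in the member shift was not tested.

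**Figure D2:**
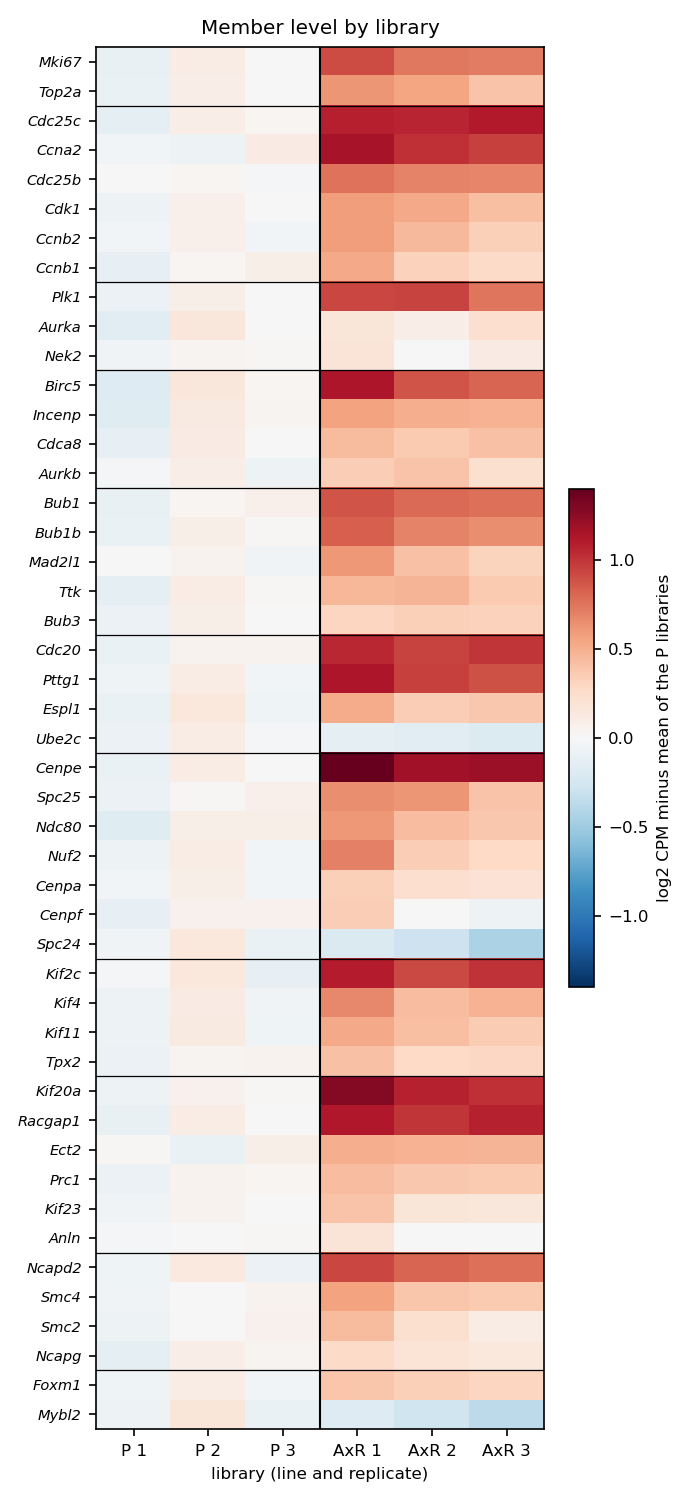
Level of each member in each of the 6 libraries as log2 CPM minus the mean of the P libraries, in role order, with red above and blue below that mean. The first AxR library is the reddest column, and Ube2c, Spc24, and Mybl2 are the rows that turn blue in all 3 AxR libraries.

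The libraries held between 15495260 and 17294525 estimated counts, with 3 replicates of similar depth in each line. Levels are given as CPM, edgeR's count measure after scaling for depth, and gene positions are those of build GRCm38. Epithelial markers were expressed in every library but did not move one way. Of 11 listed, 6 were higher in AxR, 4 were lower, among them Cldn7 at -3.43 and Krt19 at -1.31, and Krt5 was at 0. Their sum, between 2196 and 2424 CPM in P and between 3254 and 3425 CPM in AxR, was made mostly by Krt7, Krt8, Krt18, and Cdh1. Of 10 leukocyte markers, 6 were at or under the 3-count floor, with Tyrobp, Fcer1g, and Cd3e at 0 everywhere. The leukocyte sum, between 6.14 and 8.28 CPM in P and between 16.6 and 17.5 CPM in AxR, was nearly all Cd68 (means 3.39 and 8.02 CPM) and Cd14 (means 3.52 and 8.39 CPM). Likewise the fibroblast sum, between 22.5 and 24.1 CPM in P and between 10.2 and 11.6 CPM in AxR, was nearly all Pdgfra (means 22.6 and 10.1 CPM), with Col3a1, Lum, and Thy1 at 0. Endothelial and lung epithelial markers stayed at or under 0.693 CPM and 0.426 CPM in every library, with Kdr, Emcn, and Cldn5 and with Sftpd, Scgb1a1, and Nkx2-1 at 0. The part of these transcripts in the member shift was not tested.

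Promoter sequence is shown because CHR and CCAAT elements are known features of this class of gene. The members printed are both mitotic B cyclins and those at either end of the range among the 38 with a window in use. Kif20a and Cdc25c, which rose more than Racgap1, and Spc24, which fell most, had no window in use. A RefSeq window from 250 bases before to 50 bases after the start was read for 38 of the 47 members in build GRCm38.p6. The CHR element was searched as TTTGAA or, in its palindromic form, as TTTAAA, and the box bound by NF-Y as CCAAT, on both strands. CHR letters were present in 31 of the 38, or 81.6%, against 27.6% of all 32851 windows and 22.2% of 9386 tested non-member genes. A gene, member or not, was counted if any of its windows held the letters, whereas all windows were counted singly. CCAAT letters were present in 30, or 78.9%, against 37.4% of all windows and 43.3% of tested non-member genes. Both were found in 27 members, or 71.1%, against 10.7% and 9.01%. The E2F site was searched only as TTTGGCGC, TTTCGCGC, or TTTCCCGC, which misses sites with other letters. It was in 3 members, or 7.89%, against 1.84% of all windows and 4.25% of tested non-member genes, and 3 genes are too few to read a difference from. The windows below run from 200 bases before to 30 bases after the start, on the coding strand and 5′ to 3′, with CHR and CCAAT matches on either strand in capitals. Cenpe lies at chr3:135212363-135212592 on the plus strand, Racgap1 at chr15:99651627-99651856 on the minus strand, Ccnb1 at chr13:100786457-100786686 on the minus strand, Ccnb2 at chr9:70421525-70421754 on the minus strand, Ube2c at chr2:164769729-164769958 on the plus strand, and Mybl2 at chr2:163054435-163054664 on the plus strand.
Cenpe: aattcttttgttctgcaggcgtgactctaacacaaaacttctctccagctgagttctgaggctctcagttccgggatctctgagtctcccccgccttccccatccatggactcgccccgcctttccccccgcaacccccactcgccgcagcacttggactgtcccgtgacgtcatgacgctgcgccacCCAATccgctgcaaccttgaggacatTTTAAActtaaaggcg
Racgap1: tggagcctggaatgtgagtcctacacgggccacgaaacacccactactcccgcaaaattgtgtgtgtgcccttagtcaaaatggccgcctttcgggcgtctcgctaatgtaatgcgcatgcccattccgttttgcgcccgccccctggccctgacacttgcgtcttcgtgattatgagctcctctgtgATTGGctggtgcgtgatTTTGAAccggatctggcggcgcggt
Ccnb1: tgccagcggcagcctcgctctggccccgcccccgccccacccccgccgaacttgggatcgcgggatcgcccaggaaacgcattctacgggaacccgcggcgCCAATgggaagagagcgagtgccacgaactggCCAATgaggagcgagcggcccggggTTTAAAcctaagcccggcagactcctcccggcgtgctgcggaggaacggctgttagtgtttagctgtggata
Ccnb2: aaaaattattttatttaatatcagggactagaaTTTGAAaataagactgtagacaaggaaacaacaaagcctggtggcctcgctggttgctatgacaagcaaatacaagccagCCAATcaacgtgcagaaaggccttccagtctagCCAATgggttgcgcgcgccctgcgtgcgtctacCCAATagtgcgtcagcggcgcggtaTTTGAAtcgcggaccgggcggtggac
Ube2c: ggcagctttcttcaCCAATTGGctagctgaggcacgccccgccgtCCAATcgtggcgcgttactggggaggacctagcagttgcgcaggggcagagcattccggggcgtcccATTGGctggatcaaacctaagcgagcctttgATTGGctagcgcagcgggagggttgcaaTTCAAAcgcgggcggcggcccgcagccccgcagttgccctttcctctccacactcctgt
Mybl2: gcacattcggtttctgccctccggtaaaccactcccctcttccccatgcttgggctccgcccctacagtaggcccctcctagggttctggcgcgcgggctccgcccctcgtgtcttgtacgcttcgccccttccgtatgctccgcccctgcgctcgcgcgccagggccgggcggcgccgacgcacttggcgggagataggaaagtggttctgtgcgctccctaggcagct

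The Cenpe and Racgap1 windows, from the members with log2 fold changes of 1.26 and 1.07, each held 1 CCAAT box and 1 CHR match just after the start. Ccnb2 had 3 CCAAT boxes upstream of its CHR match at the start and a further CHR match at 167 bases before it. Ube2c, which fell in AxR, carried the same letters, with a CHR match on the opposite strand at 29 bases before the start and several CCAAT matches, 2 of which overlap as CCAATTGG. In the Mybl2 window no CHR or CCAAT letters were found, which says only that they are absent from that stretch. The median changes of members with and without the letters were close, but few of the 38 members lacked them and the difference was not tested. The median log2 fold change was 0.46 for members with CHR letters and 0.45 for those without, and 0.45 with and 0.46 without CCAAT letters.

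Among the proliferation markers, Mki67 and Top2a were both higher in AxR. Mki67 (Ki-67, ENSMUSG00000031004.8, chr7:135689784-135716361) encodes the protein that coats mitotic chromosomes and is scored by pathologists as a marker of cycling cells. Its level was 469.6, 545, and 507 CPM in P replicates 1 to 3 and 957, 847, and 831 CPM in AxR replicates 1 to 3, and every AxR library was above every P library. The line means were 507 ± 37.8 and 878 ± 68.6 CPM (SD, n = 3 libraries), and the log2 fold change was 0.79 (SE 0.064, edgeR adjusted p = 8.54e-08). Top2a, the topoisomerase that untangles sister chromatids, read 609, 693, and 644 CPM in P and 994, 947, and 858 CPM in AxR, without overlap, a log2 fold change of 0.52 (SE 0.061, edgeR adjusted p = 3e-06).

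All 6 genes of the mitotic switch, CDK1 with its cyclins and CDC25 phosphatases, rose in AxR, with a median log2 fold change of 0.61. Ccna2 (cyclin A2, ENSMUSG00000027715.9, chr3:36564865-36572150), which partners CDK2 in S phase and CDK1 in G2, gave 176, 172, and 195 CPM in P and 404, 368, and 351 CPM in AxR. The AxR libraries were all well above the P libraries, with means of 181 ± 12.4 and 375 ± 26.9 CPM (SD, n = 3) and a log2 fold change of 1.05 (SE 0.062, edgeR adjusted p = 1.84e-09). The B cyclins moved less. Ccnb1, the main mitotic partner of CDK1, was at 99.3, 109.5, and 113 CPM in P and 155, 134, and 129 CPM in AxR, a log2 fold change of 0.37 (SE 0.071, edgeR adjusted p = 0.000307), and Ccnb2 rose by 0.46 (SE 0.067). Cdk1 itself went from 137, 152, and 144 CPM to 217, 208, and 193 CPM, a log2 fold change of 0.51. Of the phosphatases that remove the inhibitory phosphates from CDK1, Cdc25c (ENSMUSG00000044201.9, chr18:34732993-34751533) was the least abundant member per kilobase of exon in P, at 3.91 CPM per kb. It rose from 17.6, 20.5, and 19.6 CPM to 40.8, 40.4, and 41.4 CPM, and Cdc25b rose from 60.7, 62.2, and 60.0 CPM to 103, 98.4, and 97.8 CPM. Their log2 fold changes were 1.09 (SE 0.074) and 0.71 (SE 0.053), and neither overlapped between the lines.

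The mitotic kinases of the centrosome and spindle did not move as a group. Plk1 (ENSMUSG00000030867.7, chr7:122159439-122169873), the polo-like kinase that acts at centrosomes, kinetochores, and the midzone, was 45.1, 50.5, and 47.7 CPM in P and 91.1, 91.7, and 80.0 CPM in AxR, a log2 fold change of 0.87 (SE 0.067, edgeR adjusted p = 2.74e-08). Aurka, the centrosome kinase that activates PLK1, read 68.0, 84.4, and 74.9 CPM in P and 84.6, 80.2, and 88.5 CPM in AxR. Its libraries overlapped, and the log2 fold change of 0.16 (unadjusted 95% interval 0.00 to 0.31) had an edgeR adjusted p of 0.0724. That call was not stable. Without P replicate 2 the value was 0.24 with an edgeR adjusted p of 0.00508, and Aurka also passed without the low-count filter. Nek2, which drives centrosome separation, overlapped as well, at 88.5, 94.1, and 92.7 CPM and 104, 91.3, and 99.4 CPM, with a log2 fold change of 0.10 (95% interval -0.03 to 0.22).

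The 4 chromosomal passenger genes were all higher in AxR, to unequal degrees. Birc5 (survivin, ENSMUSG00000017716.15, chr11:117849251-117855743), which brings the complex to the centromere, rose from 40.2, 50.9, and 46.5 CPM to 100.3, 84.0, and 80.0 CPM, a log2 fold change of 0.94 (SE 0.099, edgeR adjusted p = 8.56e-06). The kinase of the complex, Aurkb, rose from 51.5, 56.2, and 50.1 CPM to 66.6, 69.1, and 61.6 CPM, a log2 fold change of 0.32 (SE 0.065). Incenp, its scaffold, and Cdca8 (borealin) rose by 0.52 and 0.40. No member of the complex overlapped between the lines.

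The spindle checkpoint genes rose together, 5 of 5, with a median log2 fold change of 0.45. Bub1, a kinase that marks the inner centromere and recruits checkpoint proteins, was 63.9, 69.8, and 72.3 CPM in P and 126, 119, and 117 CPM in AxR, with a log2 fold change of 0.81 (SE 0.059, edgeR adjusted p = 1.39e-08). Bub1b (BUBR1), part of the APC/C inhibitor, rose by 0.73 (SE 0.064), Mad2l1 (MAD2), which captures CDC20, by 0.45, Ttk (MPS1), the kinase at the head of the checkpoint, by 0.44, and Bub3, which tethers BUB1 and BUBR1 to kinetochores, by 0.32.

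The genes of APC/C activity and sister separation divided. Cdc20 (ENSMUSG00000006398.15, chr4:118432901-118437352), the mitotic activator of the APC/C, was 71.8, 79.2, and 79.2 CPM in P and 159, 147, and 154 CPM in AxR, and Pttg1 (securin), the inhibitor of separase, was 21.0, 23.5, and 21.3 CPM in P and 48.1, 42.7, and 40.5 CPM in AxR. Neither overlapped, with log2 fold changes of 1.00 (SE 0.057, edgeR adjusted p = 9.36e-10) and 0.99 (SE 0.081). Espl1, separase itself, rose by 0.41. In the opposite direction, Ube2c (ENSMUSG00000001403.13, chr2:164769898-164778822), the ubiquitin-conjugating enzyme that serves the APC/C, read 118, 134, and 122 CPM in P and 114, 112, and 109 CPM in AxR. The AxR libraries were all below the P libraries, but by little, and the level fell by 0.16 on the log2 scale (SE 0.057, edgeR adjusted p = 0.0252). The call was lost without P replicate 2 (-0.10, adjusted p = 0.124), without AxR replicate 2 (-0.16, adjusted p = 0.0674), and without AxR replicate 3 (-0.14, adjusted p = 0.0578).

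Kinetochore genes held both the largest rise and the largest fall among the members. Cenpe (ENSMUSG00000045328.11, chr3:135212537-135273611), the kinesin that carries chromosomes to the spindle equator, gave 214, 246, and 227 CPM in P and 607, 518, and 526 CPM in AxR. Every AxR library was far above every P library, with means of 229 ± 16.3 and 550.3 ± 48.9 CPM (SD, n = 3) and a log2 fold change of 1.26 (SE 0.067, edgeR adjusted p = 1.51e-09). Cenpf, a large coiled-coil protein of the outer kinetochore, was 228, 257, and 258 CPM in P and 314, 248, and 235 CPM in AxR. Only AxR replicate 1 stood above all P libraries, and the log2 fold change of 0.10 (95% interval -0.16 to 0.36) turned to -0.034 without it. The NDC80 complex, which grips the microtubule end, has 4 subunits in the set. Ndc80, Nuf2, and Spc25 rose by 0.47, 0.45, and 0.56, whereas Spc24 (ENSMUSG00000074476.6, chr9:21755442-21760303) was 34.2, 39.3, and 33.2 CPM in P and 30.8, 28.9, and 26.0 CPM in AxR. Spc24 was lower in every AxR library than in any P library and fell by 0.32 (SE 0.085, edgeR adjusted p = 0.00401). Cenpa, the centromeric histone, rose by 0.26 (SE 0.056).

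The 4 spindle motors and microtubule binding genes rose in AxR, with a median log2 fold change of 0.48. Kif2c (MCAK, ENSMUSG00000028678.13, chr4:117159639-117182639), which depolymerizes microtubules to correct wrong attachments, was 33.2, 37.7, and 31.4 CPM in P and 72.7, 64.3, and 68.7 CPM in AxR, a log2 fold change of 1.01 (SE 0.075, edgeR adjusted p = 1.97e-08). Kif4, a chromokinesin, Kif11 (Eg5), which pushes the spindle poles apart, and Tpx2, which activates Aurora A and nucleates microtubules, rose by 0.53, 0.43, and 0.33.

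Of the 6 genes of the central spindle and cytokinesis, 5 rose. Kif20a (ENSMUSG00000003779.15, chr18:34624613-34633277), the kinesin that brings PLK1 to the midzone, went from 61.3, 67.2, and 65.0 CPM to 157, 136, and 131 CPM, and Racgap1 (ENSMUSG00000023015.13, chr15:99620496-99651656), the GTPase-activating subunit of centralspindlin, went from 100.0, 115, and 108 CPM to 235, 216, and 228 CPM. Their log2 fold changes were 1.13 (SE 0.069, edgeR adjusted p = 2.75e-09) and 1.07 (SE 0.059, edgeR adjusted p = 6.83e-10). Kif23, the motor subunit of centralspindlin, rose by only 0.25 (SE 0.066). Ect2, the exchange factor that RACGAP1 recruits to activate RhoA, and Prc1, the microtubule bundler, rose by 0.49 and 0.39. Anln (anillin), the scaffold of the contractile ring, was 624, 629, and 639 CPM in P and 715, 628, and 634 CPM in AxR. The Anln libraries overlapped, with a log2 fold change of 0.06 (95% interval -0.05 to 0.18).

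Condensin genes rose, 4 of 4, by smaller amounts, with a median log2 fold change of 0.35. Ncapd2, a HEAT-repeat subunit of condensin I, rose by 0.84 (SE 0.066), while Ncapg, the other HEAT-repeat subunit, rose by 0.20 (SE 0.061, edgeR adjusted p = 0.0106), a call that was lost without P replicate 1 (0.14, adjusted p = 0.0679). The ATPase subunits Smc4 and Smc2 rose by 0.44 and 0.26. Smc4 was the most abundant member per kilobase of exon, at 113 CPM per kb in P and 154 CPM per kb in AxR.

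The transcription factors that activate G2/M genes moved in opposite directions. Foxm1 was 132, 147, and 133 CPM in P and 179, 173, and 169 CPM in AxR, a log2 fold change of 0.34 (SE 0.054, edgeR adjusted p = 5.88e-05). Mybl2 (B-MYB, ENSMUSG00000017861.11, chr2:163054687-163084688) was 42.9, 51.0, and 42.2 CPM in P and 39.8, 37.2, and 35.0 CPM in AxR and fell by 0.28 (SE 0.081, edgeR adjusted p = 0.00639). All 3 AxR libraries were below all 3 P libraries for Mybl2, and above them for Foxm1.

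Partner transcripts were also set against each other within each library. The 15 pairs examined were chosen after their values were seen, so their ratios are given as a description without a test. Counts per exon base of Spc25 were 0.393, 0.368, and 0.45 of those of Spc24 in P and 0.727, 0.757, and 0.722 in AxR, a difference of 0.87 on the log2 scale (SE 0.0885). The proteins of these genes form 1 dimer in the NDC80 complex. In the other dimer of that complex, the ratio of Ndc80 to Nuf2 was 1.38, 1.45, and 1.60 in P and 1.37, 1.56, and 1.57 in AxR, with overlap. For centralspindlin, Racgap1 to Kif23 was 1.10 in P and 1.95 in AxR (geometric means), and for condensin I, Ncapd2 to Ncapg was 0.641 and 1.00, neither with overlap. Cdc20 to Ube2c was 0.858 in P and 1.91 in AxR, and Cenpe to Cenpf was 1.66 and 3.73. Ccna2 to Ccnb1 was 1.75 in P and 2.79 in AxR, while the ratio of Ccnb2 to Ccnb1 overlapped between the lines, at 1.69, 1.64, and 1.47 in P and 1.66, 1.75, and 1.67 in AxR. The lines did not overlap for 12 of the 15 pairs. No such share was computed for other pairs of genes, and 68.3% of single tested genes did not overlap either. For some pairs, part of the difference in ratio lay between chromosomes. After subtracting the gap between the median log2 fold changes of their chromosomes, the log2 difference for Ccna2 to Ccnb1 went from 0.67 to 0.08, that for Cenpe to Cenpf from 1.17 to 0.56, and that for Racgap1 to Kif23 from 0.83 to 0.48. Spc25 to Spc24 was then at 0.73 and Cdc20 to Ube2c at 0.97. For other pairs the difference grew, from 0.50 to 0.77 for Bub1 to Bub3 and from 0.58 to 0.69 for Pttg1 to Espl1. Birc5 to Aurkb, both on chromosome 11, stayed at 0.62. The direction turned for Ndc80 to Nuf2, from 0.03 to -0.44, and for Cdc25c to Cdc25b, from 0.38 to -0.21.

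**Figure D3:**
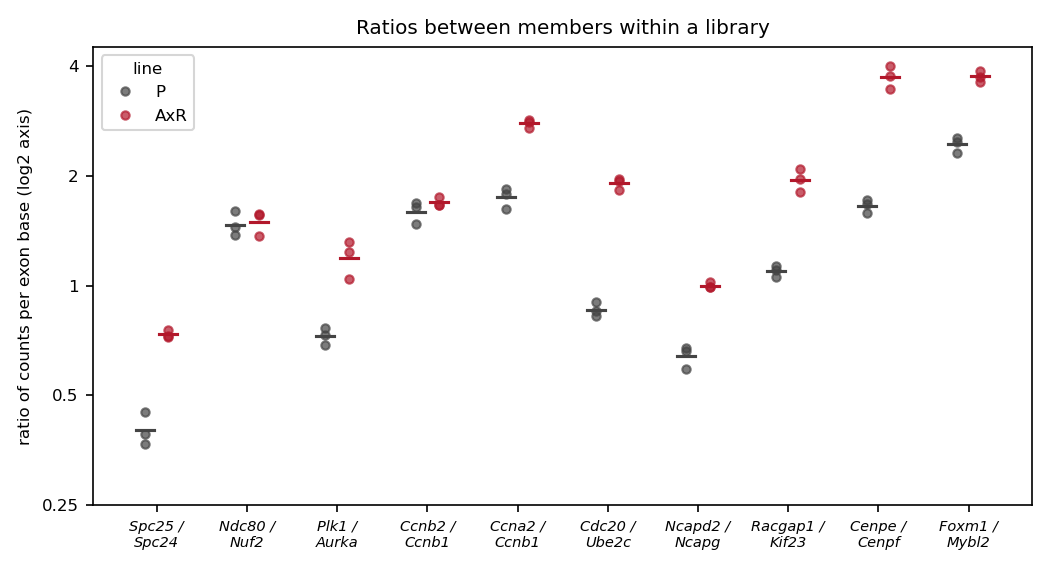
Ratio of counts per exon base between pairs of members in each library, on a log2 axis, with the geometric mean of each line as a bar. The lines overlap for Ndc80 with Nuf2 and for Ccnb2 with Ccnb1 and are apart for the other 8 pairs drawn.

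The lines also differed chromosome by chromosome, so each member was read against the tested non-member genes of its own chromosome. The median log2 fold change of those genes ran from -0.29 on chromosome 1, -0.27 on chromosome 13, and -0.23 on chromosome 9 to 0.32 on chromosome 3 and 0.50 on chromosome 18, among the chromosomes that hold members. All 28 members on chromosomes with a positive median were higher in AxR. These include 3, 4, and 2 members on chromosomes 6, 11, and 19, whose medians were only 0.0066, 0.0055, and 0.0011. Over all tested genes 32.8% were higher and 30.8% lower, and these shares were not computed by sign of the chromosome median. On chromosomes with a negative median, 12 of 19 were higher, and the 3 lower members and the 4 that did not pass were all among these 19. Member and chromosome values had a Pearson correlation of 0.587 across the 47 genes, which is a description, since genes of 1 chromosome share its median.

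Most members nevertheless stood above their chromosome. The log2 fold change of 44 of the 47 exceeded the chromosome median, also with any 1 library left out, and the median excess was 0.44. Read against the 25 tested genes on each side, 45 members were above, with a median excess of 0.54. The SD of the members' log2 fold changes was 0.368 as measured, 0.298 after subtracting the chromosome median, and 0.269 after subtracting the local median. On chromosome 18, Kif20a and Cdc25c exceeded the median of 0.50 by 0.64 and 0.59. Cenpe and Ccna2 on chromosome 3 exceeded its median by 0.94 and 0.73, but Ect2 and Smc4 on the same chromosome by only 0.17 and 0.12. On chromosome 9, Ccnb2 and Ttk stood 0.69 and 0.67 above a negative median, and on chromosome 13 Ccnb1 stood 0.65 above. The excess of Pttg1, 0.99 over chromosome 11, was the largest of the members.

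With the chromosome shift as an offset in the same edgeR fit, 42 members were higher and none lower, where 30.3% of all tested genes were higher and 29.2% lower, or 59.5% in all. Of the 40 members higher before, 38 remained so, and Smc2 and Smc4 no longer passed, with adjusted p values of 0.0649 and 0.0767. Aurka, Nek2, Cenpf, and Anln, which had not passed, were then higher by 0.25, 0.39, 0.39, and 0.29. Ube2c, Spc24, and Mybl2 no longer passed, at -0.06, -0.09, and -0.19 relative to their chromosomes. At an unadjusted p under 0.05, 1 member, Mybl2, was lower in that fit. Relative to the local median, Spc24 was -0.37 and Mybl2 -0.0025, while Ube2c was 0.12.

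**Figure D4:**
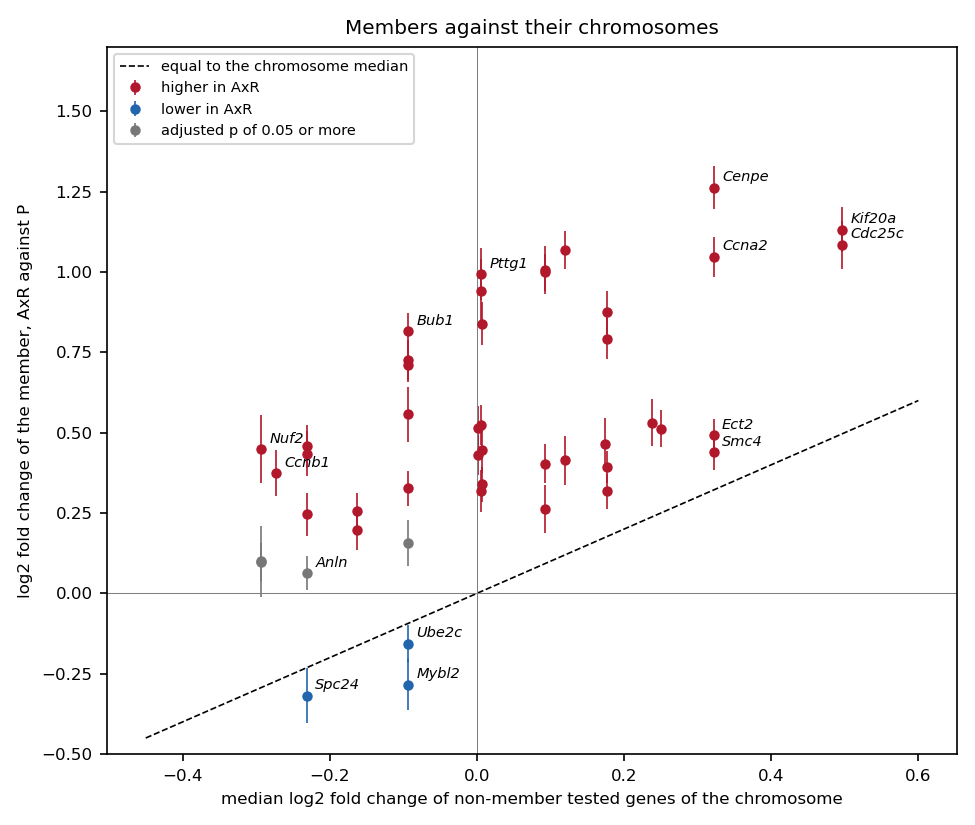
Log2 fold change of each member with its standard error against the median log2 fold change of the non-member tested genes of its chromosome, where the dashed line marks equality. Of the 47 points 44 lie above the dashed line, and Ube2c, Spc24, and Mybl2 lie below it.

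Other genes of cell division were read from the same fit, in 7 lists of 150 genes in all. Of these, 82 were higher in AxR, 31 were lower, and 37 did not pass, where 32.8% of all tested genes were higher and 30.8% lower. The median log2 fold change of the 150 was 0.24. With the chromosome offset, 85 of the 150 were higher and 25 lower, against 30.3% and 29.2% of all tested genes. Most of the higher genes belonged to 2 lists. Of 46 other spindle, centrosome, and cytokinesis genes, 37 were higher and 5 lower, with a median of 0.43, led by Dlgap5, which stabilizes spindle fibers, at 1.16 (SE 0.066), Sass6, the core of the centriole cartwheel, at 0.95, and Hmmr at 0.90. Of 39 other kinetochore and centromere genes, 23 were higher and 5 lower, with a median of 0.39. Haspin, the kinase that places the passenger complex, rose by 1.09 and Cenpm by 1.00, whereas Zw10, which brings dynein to the kinetochore, fell by 0.88 (SE 0.075).

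The remaining lists were divided in direction, as were all tested genes, of which 32.8% were higher and 30.8% lower. Of 16 APC/C core subunits and E2 enzymes, 3 were higher and 4 lower, with a median of 0.01. With the chromosome offset, 6 of the 16 were higher and 2 lower. Cdc23, on chromosome 18 with its median of 0.50, rose by 0.69 and Fzr1, the G1 activator, by 0.53, while Anapc16 fell by 0.44. Of 16 other regulators of G2/M entry and exit, 6 were higher and 4 lower. Fbxo5 (EMI1), an inhibitor of the APC/C, rose from 25.3, 25.6, and 26.1 CPM to 57.7, 58.5, and 56.8 CPM, a log2 fold change of 1.17 (SE 0.062), and Ccnf, cyclin F, by 1.01, while Cdc14b fell by 0.80. Among 13 cohesin genes 6 were higher and 4 lower, and Esco2, the acetyltransferase that establishes cohesion in S phase, rose from 16.6, 17.3, and 17.6 CPM to 54.7, 46.9, and 38.7 CPM, a log2 fold change of 1.44 (SE 0.111). Esco1, also on chromosome 18, and Stag2 rose by 0.81 and 0.49. The 4 other condensin subunits were divided evenly, and Ncaph2 rose by 0.56, Ncaph rose by 0.26, and Ncapd3 fell by 0.29. Of 16 regulators in the DREAM, MuvB, and NF-Y groups, 5 were higher and 7 lower, with a median of -0.10. Rbl2 (p130), the pocket protein of DREAM, rose by 0.81, and E2f4, its E2F partner, and Nfyb, a CCAAT-binding subunit, fell by 0.60 and 0.58.

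**Figure D5:**
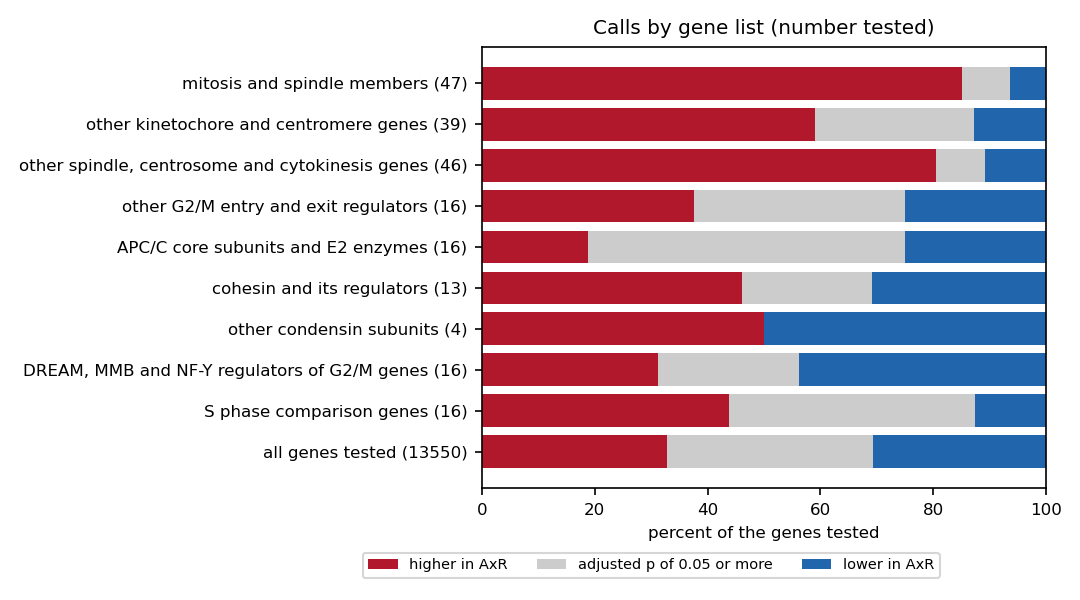
Percent of the tested genes in each list that were higher in AxR (red), lower (blue), or did not pass an adjusted p of 0.05 (gray), with the number tested in brackets. The members and the other spindle, centrosome, and cytokinesis genes have the longest red bars, and all genes tested are in the last bar with 32.8% higher and 30.8% lower.

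Some members share bases with other genes, and the strand setting used in counting is not given in the sources used here. Exons of 15 members overlap those of another gene, 12 of them on the opposite strand. The largest overlap was of Kif20a with Cdc23, at 1271 bases or 29.3% of the exon bases of Kif20a, and Cdc23 was also higher in AxR, so both values are uncertain. Ube2c shares 22.8% of its exon bases with Tnnc2, which had at most 1 count in any library. The overlapping partners of Kif4, Ncapg, and Prc1, which are Pdzd11, Lcorl, and Rccd1, did not rise, at log2 fold changes of -0.03, -0.01, and -0.69. That of Cdca8, 9930104L06Rik, was at -0.41. Exosc9, Elovl1, Spef1, and Gm3550, opposite-strand partners of Ccna2, Cdc20, Cdc25b, and Cdc25c, did rise, by 0.23, 0.26, 0.76, and 1.425. They share 12.5%, 2.84%, 2.47%, and 12.7% of the member's exon bases, so the values of these members are uncertain too. Gm3550 held at most 23 counts in any library. Near-identical stretches, of at least 95% identity over at least 200 bases, were found for 6 members. For Ccnb1, the copy Ccnb1-ps is 99.2% identical over 1287 bases and held between 146 and 198 counts per library, with a log2 fold change of 0.11. A further copy, Gm12856, is 98.1% identical over 1294 bases, held between 38 and 64 counts, and rose by 0.48 (edgeR adjusted p = 0.0299). For Ndc80, 2700099C18Rik is 95% identical over 303 bases and held between 160 and 205 counts, with a log2 fold change of -0.14. The division of reads between these members and their copies is therefore uncertain.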

How the data were processed

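RNA from 3 P and 3 AxR libraries was prepared by the authors with a stranded polyadenylated RNA kit. Per the submitters' processing notes and the study's methods, reads were checked with FastQC 0.11.5, mapped by STAR 2.6.0a to the GRCm38 build annotated by GENCODE M16, and quantified with RSEM 1.3.1, and the deposited values are RSEM estimated counts per gene, before filtering or normalization. A read that fits more than 1 gene is shared out by RSEM, so values need not be whole. Symbols, positions, and exon lengths were taken from GENCODE M21 of the same build, in which 53360 of 53465 identifiers were found. Estimated counts were rounded to whole numbers, filtered with filterByExpr, normalized by upper quartile (factors from 0.966 to 1.02), and compared by the quasi-likelihood test in edgeR 4.0.16 (R 4.3.3) using robust dispersion, line as the single term, and Benjamini-Hochberg adjustment over 13550 genes at a threshold of 0.05. The test was tried on 3 simulated P and AxR data sets with 200 changed genes each, between 13471 and 13497 genes tested. It recovered 264 of 299 changes of 0.5 on the log2 scale and all 301 changes of 1, and 23 of its 588 calls were false. The simulation gave all genes the same dispersion, changed only well-counted genes, and held no chromosome shifts. Far fewer genes changed in it than the 63.5% called in the real data. These rates therefore need not hold for the data themselves. With 3 libraries a side, an exact permutation test of 1 gene cannot go below 0.1, so none is given.

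CPM were taken from edgeR with upper quartile library sizes, and CPM per kb divides them by exon length. Log2 CPM used a prior count of 2. Intervals of 95% are unadjusted and come from the edgeR standard error. Counts at or under 3 were taken as the floor, which covers counting error only. Chromosome shifts are medians of tested non-member genes. Promoters came from the RefSeq tables of build GRCm38.p6, with 9 members not used because no window was at hand or because of their chromosome. Windows on chromosome 18, which holds Kif20a and Cdc25c, were left out for members. That filter was not applied to the set of all windows or to the tested non-member genes. Copies were sought with BLAST 2.17.0.

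The members and the gene lists were chosen with earlier results of these data known. All 47 members are named, the other lists are named by the 3 called genes with the largest absolute change, and the overlapping genes and copies were named after their values were seen. Replicates of a line differed by 5.06 to 19.5 times the counting noise (chi-square per degree of freedom) and were kept separate. Alternatives were TMM, library size only, DESeq2 1.42.0, limma-voom with limma 3.58.1, other filters, other thresholds, the replicate block, the chromosome offset, and leaving out each library. No library or column was left out of the main comparison.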

Additional observations from a re-analysis of the deposited data

How the results depend on the processing

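The call of 43 of the 47 members was unchanged in direction and side of the threshold in all 13 alternatives of normalization, test, filter, replicate block, and left-out library, and 39 of the 40 higher members stayed higher in each. The exceptions were Aurka, Ube2c, Ncapg, and Cenpf. Aurka passed with no low-count filter (0.15, adjusted p = 0.0392). Cenpf ranged from -0.034 without AxR replicate 1 (adjusted p = 0.650) to 0.18 without AxR replicate 3, and the cause was not tested. Leaving out 1 library gave 39 to 41 members higher, 2 to 3 lower, a median log2 fold change of 0.39 to 0.51, and a median excess over the chromosome of 0.39 to 0.48, while 4124 to 4499 of all tested genes were higher and 3782 to 4112 lower, and 76 to 83 and 25 to 33 of the 150 other division genes. Replicate numbers did not pair the libraries, since deviations of same-numbered P and AxR libraries correlated at -0.021, -0.0061, and -0.022 over genes. With the replicate number as a block, 40 members were higher and 3 lower and the median was 0.44, with 4304 and 4023 of all genes and 81 and 30 of the other division genes. Requiring a log2 fold change of at least 1 left 6 members higher and 0 lower, 1083 and 640 of all genes, and 5 and 0 of the other division genes, by construction. None of those other genes was lower by that size at an unadjusted p under 0.05 in edgeR or at an adjusted p under 0.05 in DESeq2 or limma-voom. With the chromosome offset 0 members were lower in edgeR, 1 at an unadjusted p under 0.05, and that fit was not run in other tools. Scaling moved the median of all genes only between -0.02 and 0.02.

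Depth did not limit the members, with at least 274 counts each. What limits these values is the number of libraries, the single derived line, the absence of any measure of cell cycle stage in the files used here, and the unsettled medium of the P cells. Chromosome medians were not linked to copy number, which was not analysed here.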

Other observations

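Genes that act before mitosis were read from the same edgeR fit for comparison. Of 16 S phase genes 7 were higher in AxR and 2 lower, where 32.8% of all tested genes were higher and 30.8% lower. The S phase genes had a median log2 fold change of 0.14, below the 0.45 of the mitosis and spindle genes. The difference between these lists was not tested. Mcm2 and Mcm6, subunits of the replicative helicase, rose by 0.64 (SE 0.074) and 0.60 (SE 0.07), and Pcna, the polymerase clamp, by 0.40. Of 12 genes for G1 cyclins, CDK4/6, and CDK inhibitors, 9 were tested, of which 4 were higher and 3 lower. Ccnd1 (cyclin D1) was 1176, 1172, and 1154 CPM in P and 874, 812, and 742 CPM in AxR and fell by 0.53 (SE 0.055), on a chromosome whose median was 0.18. Cdkn2c (p18), an inhibitor of CDK4/6, rose from 63.4, 64.2, and 58.2 CPM to 106, 104, and 91.3 CPM, a log2 fold change of 0.70 (SE 0.066), and Cdkn2d (p19) rose by 0.56. None of these 3 G1 genes had overlapping values between the lines, which was also so for 68.3% of all tested genes.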
